A study of Mus musculus with 36 samples.

Results

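Mt1 and Mt2 encode metallothioneins, small cysteine-rich proteins that bind zinc and copper. In the blood of mice 7 days after radiation, their levels lay far above those of unirradiated controls after x-rays and after each mixed field of x-rays and neutrons, and less far above after neutrons alone. The probes were taken by gene name, as every non-control probe of the array annotated to Mt1 or Mt2. Both genes were chosen by their rise against controls in earlier results of these same arrays, so the differences from controls are given as a description, with no test. The array holds 3 such probes among 39429 non-control probes, and they stand for 2 of 31093 named genes. All 3 passed the filters on background and on variation, which 18059 probes passed in all.

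The measurements came from 36 male mice, C57BL/6J by the sample labels and C57BL/6 by the study's methods. Each had 1 Agilent one-color array of whole-blood RNA, and 6 mice made up each of 6 groups. Per the study's methods, the mice were 8 to 10 weeks old, and globin RNA was reduced before labeling. Controls were unirradiated, 6 mice received 3 Gy x-rays, and 6 mice each received 3 Gy in all from a mixed field in which neutrons contributed 5, 15, or 25% of the dose. The last group received 0.75 Gy of neutrons without x-rays, the neutron dose that the 25% mixed field also contains. It is called neutron alone here and 100% neutron in the sample titles, although the source also delivers some photons. Levels are log2 intensities minus the median of the array, so that 1 unit is a doubling relative to the median probe. The arrays were read in 4 scan sessions. Controls and x-rays shared the first with 5 arrays each, the 5 and 15% mixed fields shared the second with 5 arrays each, and the 25% mixed field and neutron alone filled the third with 6 arrays each. The fourth held 1 array each of controls, x-rays, 5%, and 15%, so that for the 25% mixed field and neutron alone, scan session and exposure cannot be told apart in any comparison with controls or x-rays.

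Metallothioneins hold zinc and copper in clusters of cysteine thiolates, buffer free zinc, and scavenge reactive oxygen species. Their transcription is driven by the zinc-sensing factor MTF1, which binds metal response elements in the promoters, and it is also raised by glucocorticoids and by the acute-phase response. In blood, developing red cells are among the cells known to carry metallothionein. Mt1 and Mt2 are the widely expressed members of the family in the mouse, while Mt3 is known from the brain and Mt4 from stratified epithelium.

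The 4 genes lie side by side on mouse chromosome 8. In the RefSeq annotation of GRCm38.p6, Mt2 spans chr8:94172618-94173567 and Mt1 spans chr8:94178883-94180327, with 5315 bases between them and both on the plus strand. The 250 bases before the start used in the RefSeq promoter table are printed because the data bear on genes that rose together. The core of the metal response element was searched as TGCACNC and TGCGCNC on both strands, and matches are in capitals. The window of Mt2 is chr8:94172368-94172617, and that of Mt1 is chr8:94178839-94179088. The gene record of Mt1 begins inside that window, so that most of the window, its marked match included, lies within the span given for Mt1, and positions are counted from the base after the window.
Mt2 promoter: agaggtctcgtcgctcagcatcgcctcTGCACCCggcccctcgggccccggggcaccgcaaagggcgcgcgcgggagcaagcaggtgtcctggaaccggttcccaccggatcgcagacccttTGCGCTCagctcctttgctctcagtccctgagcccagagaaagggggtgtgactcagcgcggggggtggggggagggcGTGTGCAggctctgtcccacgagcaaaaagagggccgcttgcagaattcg
Mt1 promoter: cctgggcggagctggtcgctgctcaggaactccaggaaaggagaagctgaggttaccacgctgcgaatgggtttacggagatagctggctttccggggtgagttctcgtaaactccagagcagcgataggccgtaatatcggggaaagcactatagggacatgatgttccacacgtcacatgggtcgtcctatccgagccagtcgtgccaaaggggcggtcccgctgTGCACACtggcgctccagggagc

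The Mt2 window held 3 matches, which began at positions -223, -128, and -50 from the start, the last of them on the minus strand. The Mt1 window held 1 match, at position -23 on the plus strand. Since most of that window lies within the span given for Mt1, its count is not set against that of Mt2. Of 32807 promoter windows of the same length, 21.4% held at least 1 match and 1.26% held at least 3. The Mt4 window held 1 match and the Mt3 window 0. A match is a run of letters and not a measured binding site.

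Per the array annotation, which uses the mm9 build, the Mt1 probe lies at chr8:96704165-96704224 and is listed for the RefSeq messenger RNA of the gene. A second Mt1 probe lies 261 bases from it at chr8:96703844-96703903 and is listed only for a predicted transcript variant. The Mt2 probe lies at chr8:96697371-96697430. The Mt1 and Mt2 probes were well above background on all 36 arrays, and the second Mt1 probe on 6 of 36. Levels of different probes are not set against each other, because probes differ in how brightly they report a transcript.

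On the Mt2 probe, control levels were tight and low, from 1.52 to 1.90 with a median of 1.62. After 3 Gy x-rays, Mt2 levels ran from 5.20 through a median of 6.75 to 6.87. All 6 x-ray arrays lay above all 6 control arrays, by a difference of means of 4.71 on the log2 scale (SE 0.29), which is 26.2-fold. Such complete separation upward was not rare, since 14.7% of all probes tested showed it after x-rays. In size the Mt2 difference ranked 9th of the 18059 probes tested.

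In the 3 mixed fields, Mt2 levels spread over a wider range than after x-rays. They ran from 5.49 through 6.86 to 7.49 in the 5% mixed field, from 5.35 through 7.24 to 8.48 in the 15% mixed field, and from 6.02 through 6.49 to 8.63 in the 25% mixed field. The width in the 25% mixed field rests on 1 array, since the others lay between 6.02 and 6.57. The lowest arrays of the 5 and 15% mixed fields were those of the fourth scan session. None of the mixed-field arrays overlapped the controls. The differences from controls were 4.94 (SE 0.32), 5.23 (SE 0.44), and 5.09 (SE 0.36), or 30.7-, 37.5-, and 34.1-fold. Among all probes, 7.91, 11.2, and 12.3% lay wholly above controls in the 5, 15, and 25% mixed fields. After neutron alone, Mt2 was again tight, from 3.54 through 3.95 to 4.03. This group stood clear of the controls below it, by 2.21 (SE 0.13) or 4.61-fold, and clear of every other exposed array above it.

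The group means of Mt1 came in the same order as those of Mt2, with more spread among the controls. Control levels ran from 1.85 through 2.96 to 4.53. After x-rays 5 of 6 arrays lay between 7.30 and 7.51 and the other at 5.58, and the difference from controls was 4.10 (SE 0.44) or 17.2-fold. Levels were 6.82 to 8.29 (median 7.75) in the 5% mixed field, 7.17 to 9.59 (median 8.23) in the 15% mixed field, and 6.93 to 9.27 (median 7.33) in the 25% mixed field. All of these arrays lay above all controls, and the mean differences were 4.67 (SE 0.40), 5.29 (SE 0.46), and 4.70 (SE 0.46), or 25.4-, 39.1-, and 25.9-fold. After neutron alone, Mt1 levels ran from 4.23 through 5.20 to 6.15. This range overlapped that of the controls, whose highest array was at 4.53, and the difference of means was 2.24 (SE 0.42) or 4.72-fold. Probes wholly above controls made up 15% of all probes after neutron alone, Mt2 among them and Mt1 not.

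**Figure D1:**
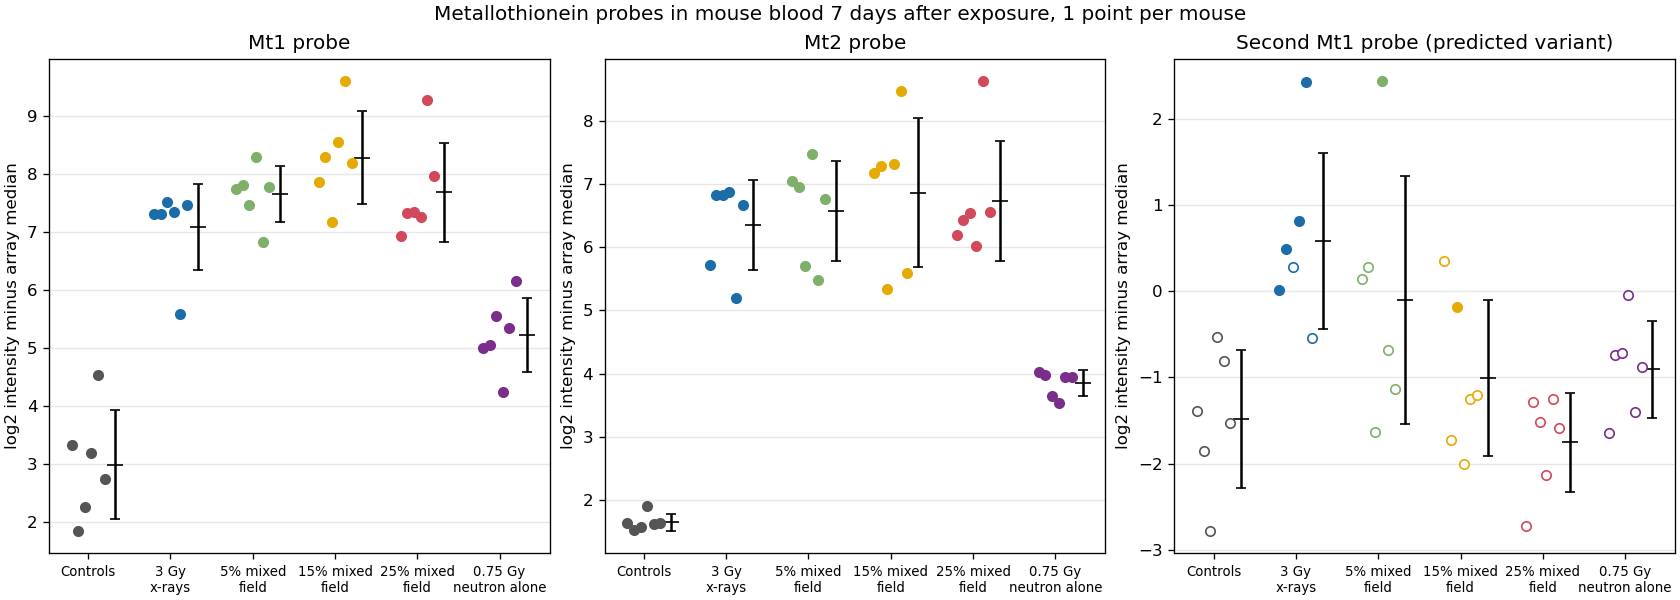
Log2 intensity minus the array median (y axis) of the 3 probes in each of 6 groups (x axis), with 1 point per mouse, open where the probe was not well above background, and the group mean with SD in black. Mt2 after neutron alone sits between 3.54 and 4.03, above all controls and below all other exposed arrays, while the second Mt1 probe was well above background on 6 of 36 arrays.

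Ordered by mean, the levels of both genes stepped down from the 15% mixed field through the 25% mixed field, the 5% mixed field, x-rays, and neutron alone to the controls. For Mt2, the neighbors among the first 4 overlapped, and the gaps were between x-rays and neutron alone and between neutron alone and controls. For Mt1, all neighbors in this order overlapped. Mean levels of Mt1 were 8.27 ± 0.80, 7.68 ± 0.85, 7.65 ± 0.49, 7.08 ± 0.74, 5.22 ± 0.64, and 2.98 ± 0.94 in that order (SD, n = 6 each). Those of Mt2 were 6.87 ± 1.18, 6.73 ± 0.95, 6.58 ± 0.80, 6.35 ± 0.71, 3.85 ± 0.20, and 1.64 ± 0.13. By median the 25% mixed field took a lower place. Its Mt2 median of 6.49 lay below those of x-rays (6.75) and the 5% mixed field (6.86). Its Mt1 median of 7.33 equaled that of x-rays (7.33) and lay below that of the 5% mixed field (7.75).

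The scanned intensities show the size of the signal before the arrays were centred. Mt2 was read at 57.4 to 84.0 in controls, at 283 to 1900 after x-rays, and at 108 to 249 after neutron alone. Mt1 was read at 72.1 to 489 in controls, at 368 to 2987 after x-rays, at 2457 to 7478 in the 25% mixed field, and at 175 to 849 after neutron alone. The array medians by which these were divided ran from 6.80 to 39.3 in intensity, with group middles of 22.2 in controls, 15.0 after x-rays, 14.2 and 26.9 in the 15 and 25% mixed fields, and 11.9 after neutron alone. An array with a lower median has higher centred levels at the same intensity. With normexp background correction in place of the scanner's own, the differences from controls were smaller, 2.61 for Mt1 and 2.62 for Mt2 after x-rays and 0.47 and 0.50 after neutron alone. That setting also adds an offset of 50 to every intensity, which is more than any of the array medians above. The part of the offset in the smaller differences was not tested. The 5 differences from controls all share the same 6 control arrays.

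Whether the neutron share of a 3 Gy dose mattered was asked of the mixed fields against x-rays. The genes were not chosen on this contrast. Its arrays do take part in the rise against controls that chose them, so its intervals and p-values are not free of that choice. Mt1 differed by 0.56 (95% interval -0.21 to 1.34) in the 5% mixed field, by 1.19 (0.28 to 2.09) in the 15% mixed field, and by 0.60 (-0.32 to 1.51) in the 25% mixed field. None of the 3 passed limma's threshold of p below 0.001 with an adjusted p below 0.05, the adjusted p being 0.359, 0.0889, and 0.353. Mt2 differed by 0.22 (-0.66 to 1.11), 0.52 (-0.58 to 1.61), and 0.38 (-0.58 to 1.34), with adjusted p from limma of 0.775, 0.550, and 0.575. The interval of the Mt1 difference in the 15% mixed field excluded 0, and the other 5 intervals held it. When each array was left out in turn, the Mt1 differences ranged from 0.26 to 0.73, from 0.89 to 1.41, and from 0.28 to 0.75, and those of Mt2 from -0.01 to 0.44, from 0.19 to 0.82, and from 0.00 to 0.52. Of all probes, 0, 3.8, and 2.46% were called by limma in the 5, 15, and 25% comparisons with x-rays, where 4018, 4946, and 5136 probes had an unadjusted p below 0.05. Within the 1 scan session that held both, with 1 array per group, the 5 and 15% mixed fields minus x-rays gave -0.63 and -0.28 for Mt1 and -1.18 and -1.32 for Mt2, the opposite direction to the whole groups.

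Neutron alone stood below x-rays. Mt1 differed by -1.86 on the log2 scale (95% interval -2.66 to -1.07), 3.64-fold lower, with limma's adjusted p = 0.00278. Mt2 differed by -2.51 (-3.14 to -1.87), 5.69-fold lower, with adjusted p = 1.04e-04 from limma. For Mt2 all neutron arrays lay below all x-ray arrays, which held for 6.91% of all probes, while for Mt1 the lowest x-ray array at 5.58 lay within the neutron range. Probes called in either direction made up 12.7% here. The doses differ as well, since 0.75 Gy was set against 3 Gy, and the groups were scanned in different sessions.

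The 25% mixed field carries the same neutron dose as neutron alone, with x-rays added, and both were scanned in 1 session. Against it, Mt1 after neutron alone differed by -2.46 (95% interval -3.31 to -1.61), 5.50-fold lower, and Mt2 by -2.89 (-3.67 to -2.10), 7.40-fold lower, with adjusted p from limma of 6.46e-04 and 1.44e-04. On both probes all 6 neutron arrays lay below all 6 mixed-field arrays. That separation was found for 9.21% of all probes, and 11.1% were called in either direction. On the 1 slide that held 2 arrays of each group, both probes differed by -3.60. The mixed-field arrays on it included replicate 5, the highest of its group for Mt1 (9.27) and standing apart for Mt2 (8.63). Under normexp background correction, Mt1 and Mt2 differed from x-rays by -2.14 and -2.12 and from the 25% mixed field by -2.84 and -2.65, and none of the 4 was called, with adjusted p from limma between 0.0590 and 0.520.

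**Figure D2:**
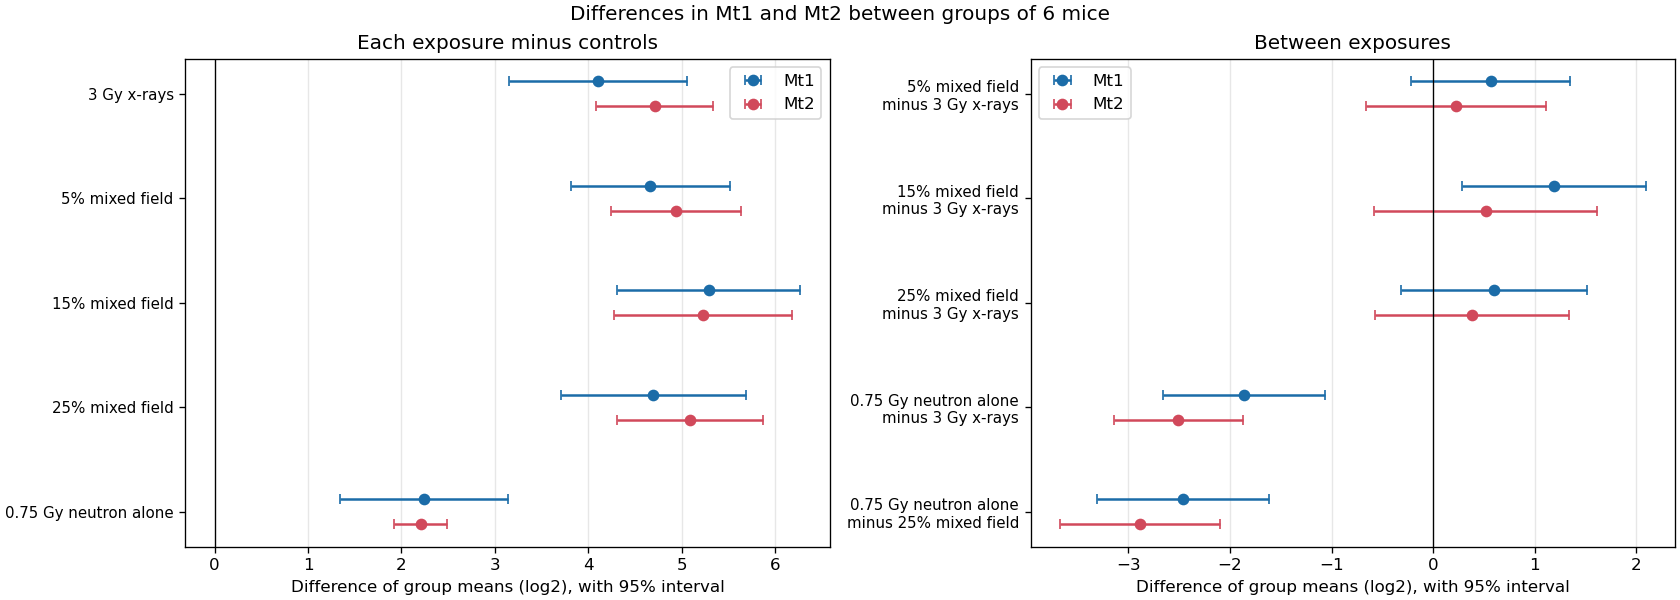
Differences of group means in log2 units (x axis) for Mt1 and Mt2, each exposure against controls on the left and exposures against each other on the right (y axis), with 95% intervals from limma, 6 mice per group. Neutron alone lies at 2.24 and 2.21 on the left, and on the right its 4 intervals lie wholly below 0 while 5 of the 6 intervals of the mixed fields against x-rays cross 0.

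The second Mt1 probe, for the predicted variant, did not follow the first. It was well above background on 4 of 6 x-ray arrays, on 1 array each of the 5 and 15% mixed fields, and on none of the controls, the 25% mixed field, or neutron alone. Its intensities ran from 10.9 to 41.5 after x-rays and from 3.78 to 15.6 in controls, where no array measured it well above background. The x-ray mean over all 6 arrays was 4.18-fold higher than the control mean as measured, and 4.04-fold higher with controls raised to a floor. The ranges of both groups overlapped, and with normexp background correction the log2 difference was 0.33. The floor takes, for each control array, the higher of the probe's own value and the lowest signal of any probe well above background. It is not a detection limit of this probe. Against the 25% mixed field raised to the same floor, the x-ray mean was 4.63-fold higher. As measured, the means were 0.58 and -1.75, a 5.03-fold difference that limma called with adjusted p = 0.0295. That call was lost under normexp background correction, where the 25% mixed field minus x-rays was -0.30, and without 6 of the 12 arrays in turn (x-ray replicates 2 and 3 and mixed-field replicates 1, 2, 4, and 6). With that floor the x-ray mean was 2.71-fold higher than neutron alone. The measured difference of 2.80-fold was not called (adjusted p = 0.0208 from limma, p above 0.001).

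Mt1 and Mt2 varied together from mouse to mouse. After each group's mean was removed, Pearson's r over the 36 arrays was 0.699 (permutation p = 3e-05) and Spearman's rho was 0.633 (permutation p = 1.4e-04), both two-sided with labels shuffled within groups. Without the 2 arrays farthest from the median of Mt2, r was 0.568. Both values of a mouse come from the same array, so they share its centring. Within single groups of 6, r was 0.951, 0.916, 0.826, and 0.811 in the 25% mixed field, the 5% mixed field, the 15% mixed field, and x-rays, 0.438 after neutron alone, and 0.316 in controls. None of these 6 passed adjustment, the lowest adjusted p of the exact permutation tests being 0.0667.

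Of the other genes tested, 15167 were ranked by the same r, and a correlation across these 36 arrays is given as a description. Mt2 had closer companions than Mt1. Mt2 went most closely with Gpsm2 (r = 0.925), which orients the mitotic spindle, with Aqp1 (0.909), the water channel of the red-cell membrane, and with Trib3 (0.904), a stress-induced pseudokinase. Mavs (0.899), an adaptor of antiviral signaling, and a transcript known to the array as ENSMUST00000112050 (0.892) completed the first 5. For Mt1 they were Fam229a (0.774), Fars2 (0.744), the mitochondrial phenylalanyl-tRNA synthetase, Cln8 (0.744), a cargo receptor of the endoplasmic reticulum, Lancl1 (0.721), which binds glutathione, and Ddb1 (0.697), a DNA damage-binding protein. These first 5 depend on how likeness is measured. Over the 30 exposed arrays Fam229a ranked 31st and Fars2 78th for Mt1, and by Spearman's rho Fars2, Lancl1, and Ddb1 ranked 13th, 18th, and 19th. For Mt2, Trib3 ranked 21st and Mavs 11th by Spearman's rho, while Gpsm2 ranked 1st under every setting run. Mt2 itself ranked 5th for Mt1, and Mt1 ranked 700th for Mt2. Genes with an r beyond 0.7 in either direction made up 4.60% of all for Mt2 and 0.0264% for Mt1.

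These 10 genes were also higher than controls in most exposures. In the 5, 15, and 25% mixed fields all 10 were called higher by limma, after x-rays 9 of 10, and after neutron alone 6 of 10. Higher calls made up 13.2, 9.23, 12.6, 11, and 16.1% of all probes after x-rays, in the 5, 15, and 25% mixed fields, and after neutron alone, and lower calls 16.9, 14.1, 16.4, 14, and 20.5%. Gpsm2 was higher by 2.92 after x-rays (SE 0.26, adjusted p = 2.66e-06), by 3.26, 3.43, and 3.29 in the mixed fields, and by 1.33 after neutron alone (SE 0.14, adjusted p = 5.41e-06). Trib3 was higher by 2.14 after x-rays (SE 0.28, adjusted p = 5.19e-05) and differed by 0.01 after neutron alone (SE 0.18, adjusted p = 0.950). Lancl1 differed by -0.22 (SE 0.15, adjusted p = 0.208) after neutron alone and was called higher in the other 4 exposures.

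**Figure D3:**
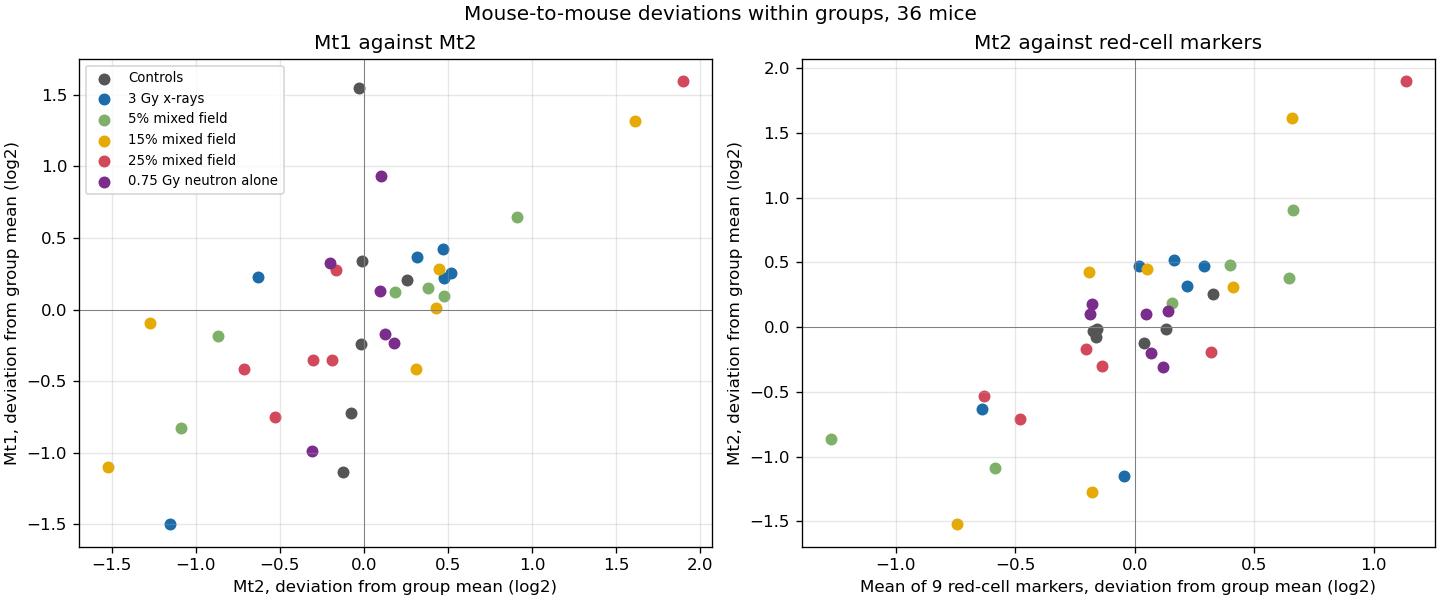
Each point is 1 of 36 mice, as its deviation from the mean of its group in log2 units, for Mt1 (y axis) against Mt2 (x axis) on the left and for Mt2 (y axis) against the mean of 9 red-cell markers (x axis) on the right. Points rise together in both plots, with r = 0.699 on the left and 0.793 on the right.

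Markers of blood cells moved with the exposures too, and in bulk blood a lower number of cells of a type and less RNA per cell cannot be told apart. Of 10 red-cell markers 9 were measured, all well above background on every array, and their mean level ran from 6.39 to 6.89 in controls and from 7.34 to 9.72 over the 30 exposed arrays. The red-cell mean was higher than controls by 2.23 after x-rays, by 2.04, 2.32, and 2.02 in the 5, 15, and 25% mixed fields, and by 1.67 after neutron alone, against 4.71, 4.94, 5.23, 5.09, and 2.21 for Mt2. The mean of 9 B-cell markers differed by -4.08, -3.88, -4.12, -3.89, and -1.46 in the same order, and no exposed array overlapped the controls in either list. Neutrophil markers (9 of 10 measured) were higher by 0.72 to 2.00, with ranges that overlapped controls in each exposure. T-cell markers differed by -1.19 to -0.46, and monocyte, NK-cell, and platelet markers by -0.51 to 0.92. Their part in the levels of Mt1 and Mt2 was not tested.

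From mouse to mouse within groups, Mt2 went with the red-cell mean (Pearson's r = 0.793, permutation p = 2e-05, adjusted 3.2e-04 over 16 relations, Spearman's rho = 0.727, permutation p = 1.1e-04). Without the 2 arrays farthest from the median of the red-cell mean, r was 0.754. Here too both values of a mouse come from the same array and share its centring. For Mt1 the same r was 0.459 (permutation p = 0.00446, adjusted 0.0285, rho = 0.400, permutation p = 0.0186), and 0.389 without those 2 arrays. Within single groups, Mt2's r ran from 0.629 to 0.926 in the 4 groups given x-rays, was 0.716 in controls, and was -0.533 after neutron alone, and none of the 12 values for both genes passed adjustment (lowest adjusted p of the exact permutation tests 0.183). The number of probes well above background on an array may reflect RNA and hybridization quality, of which no direct measure was used here. That number ran against Mt2 (r = -0.595, permutation p = 0.00534, adjusted 0.0285, rho = -0.369, permutation p = 0.0475) and against Mt1 (r = -0.434, permutation p = 0.0120, adjusted 0.0479, rho = -0.259, permutation p = 0.141). Without the 2 farthest arrays these were -0.387 and -0.227. How the red-cell mean went with this number was not tested, nor was the part of array quality in the r of 0.793. Of the other 12 relations, with neutrophil, monocyte, B-cell, T-cell, NK-cell, and platelet markers, none passed adjustment, the lowest adjusted p being 0.0587 for Mt2 with B-cell markers (r = -0.482).

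**Figure D4:**
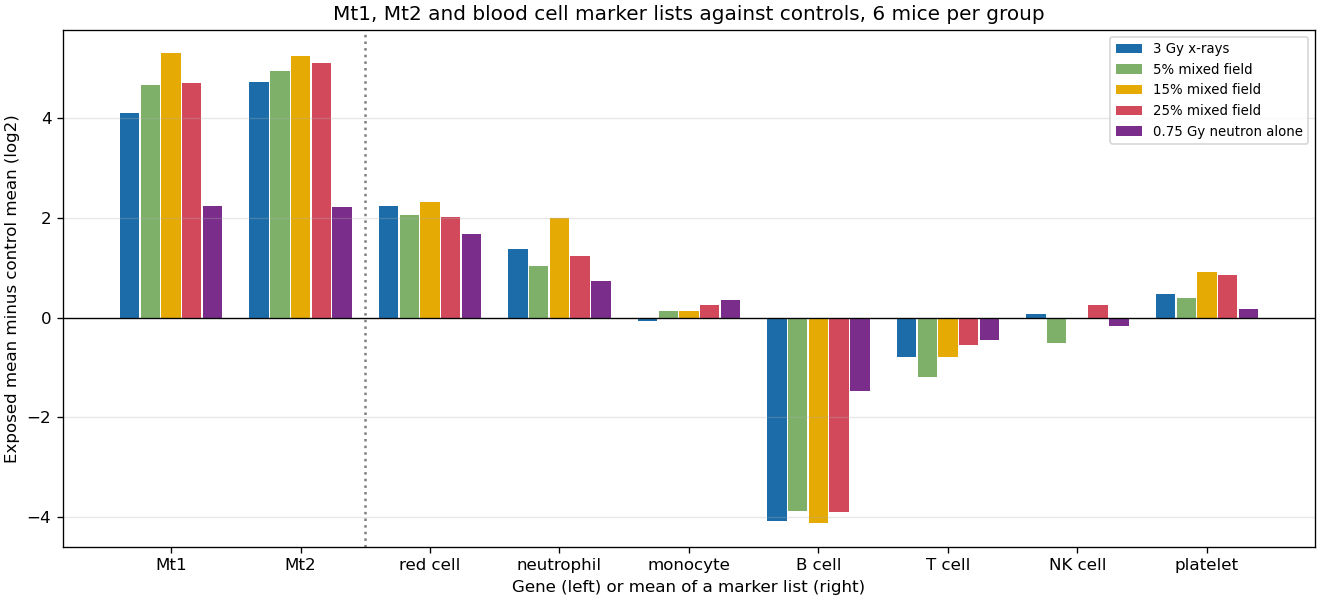
Mean of 6 exposed mice minus mean of 6 controls in log2 units (y axis) for Mt1, Mt2, and the mean of each blood-cell marker list (x axis), 1 bar per exposure. Red-cell markers differ by 1.67 to 2.32 and B-cell markers by -4.12 to -1.46, with the bar of neutron alone the shortest in both.

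Neither the relatives of Mt1 and Mt2 nor their regulator were called higher on a probe that passed the filters. Mt3, on a probe well above background on all 36 arrays, was called only in the 25% mixed field, where it fell by 1.11 (SE 0.25, limma adjusted p = 0.00282). Against controls it differed by 0.42 after x-rays, by -0.71 and -0.65 in the 5 and 15% mixed fields, and by -0.34 after neutron alone. The Mt4 probe was well above background on 8 of 36 arrays and failed the background filter. Without filters it differed by 1.53 after x-rays, not called (limma adjusted p = 0.00618, p above 0.001), and by -0.83 to -0.60 in the other exposures. On x-ray arrays it was well above background on 4 of 6. Mtf1 has 3 probes, of which the brightest was well above background on all 36 arrays but varied too little for the filter on variation. Without that filter its differences from controls were -0.08, 0.30, 0.49, 0.25, and 0.07, with adjusted p from limma between 0.0993 and 0.739. The Mtf1 probe that passed both filters was well above background on 14 arrays and was not called in any exposure, with differences from -0.55 to 0.27. The weakest was not well above background on any array and failed the background filter. Without filters it was called higher only after neutron alone, by 0.79 (limma adjusted p = 8.31e-04).

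Genes of metal handling and of pathways known to act on metallothioneins are given as counts, to be read beside the shares of all probes called. Across the exposures those shares were 9.23 to 16.1% called higher and 14 to 20.5% called lower. No list was tested against them. The split between higher and lower calls depends on the scaling, since 43.8% of the calls after x-rays were higher here, but 59.2% with 75th percentile scaling, 35.6% in the deposited table, and 6.72% with normexp. After neutron alone 2915 of 6624 calls were higher here, but 58.2% with 75th percentile scaling and 1.31% with normexp. The median difference of all probes from controls lay between -0.13 and -0.03, and after x-rays and neutron alone it moved from -0.13 in both to 0.22 and 0.13 with 75th percentile scaling and to -0.24 and -0.49 with normexp.

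Of 26 genes of zinc transport and the metallothionein relatives, 15 passed the filters. None was called higher in any exposure, beside 9.23 to 16.1% of all probes. In each exposure 1 or 2 were called lower, beside 14 to 20.5% of all probes. The list median lay between -0.55 and -0.30, and the differences that were not called ran from -1.60 to 1.72. Slc30a4, a zinc exporter, fell in every exposure, with differences of -2.30 after x-rays (SE 0.33, adjusted p = 1.06e-04), of -1.67, -2.44, and -1.64 in the mixed fields, and of -1.49 after neutron alone (SE 0.18, adjusted p = 1.77e-05). Slc30a5, another exporter, fell by 1.83 after x-rays (SE 0.34, adjusted p = 7.3e-04) and differed by -0.57 to 0.09 elsewhere. The zinc importers Slc39a10 and Slc39a13 were each called lower once, Slc39a10 at -1.33 in the 15% mixed field and Slc39a13 at -0.64 after neutron alone. In the 15% mixed field Slc39a10 was well above background on only 2 of 6 arrays. Of 12 copper genes 9 passed the filters, of which 2 rose and none fell in each exposure with x-rays, while 1 rose and 2 fell after neutron alone. Ccs, the copper chaperone of superoxide dismutase, rose by 2.02 after x-rays (SE 0.23, adjusted p = 1.82e-05), by 2.59, 2.69, and 2.51 in the mixed fields, and by 0.79 after neutron alone (SE 0.15, adjusted p = 5.63e-04), a direction that turned with normexp (-0.82). Its client Sod1 rose by 1.13 to 1.94 in the 4 exposures with x-rays (-0.25 with normexp in the 5% mixed field) and differed by 0.26 (SE 0.14, adjusted p = 0.127) after neutron alone. Cox11 and Sco2, which insert copper into cytochrome oxidase, were called lower after neutron alone, at -1.35 and -1.03.

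Of 14 genes of the NRF2 oxidant response, which shares inducers with metallothioneins, 12 passed the filters. Between 2 and 4 were called higher in each exposure, beside 9.23 to 16.1% of all probes. Nqo1, a quinone reductase, rose by 3.09 after x-rays (SE 0.22, adjusted p = 6.92e-07), by 3.02, 3.11, and 3.08 in the mixed fields, and by 1.53 after neutron alone (SE 0.15, adjusted p = 2.29e-06). Gclm, a subunit of the enzyme that starts glutathione synthesis, rose by 1.81 to 2.47 in all 5 exposures and by 2.38 after neutron alone (SE 0.14, adjusted p = 7.27e-08). Txn1, a thioredoxin, rose by 1.33, 1.47, and 1.33 in the mixed fields and differed by 0.08 after neutron alone. With normexp, Gclm and Txn1 were negative in the 5% mixed field, at -0.18 and -0.69. Keap1, the inhibitor of NRF2, was called lower after x-rays, in the 15% mixed field, and after neutron alone, at -1.18, -1.16, and -1.25.

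Of 12 genes of the glucocorticoid response, the receptor gene Nr3c1 included, 9 passed the filters. None was called higher, and 1 to 3 were called lower in each exposure. Of all probes, 9.23 to 16.1% were called higher and 14 to 20.5% lower, and the counts were not tested against these shares. Nfkbia, the inhibitor of NF-kappaB, fell in all 5 exposures, between -1.81 and -1.18. Per1 and Tsc22d3 were each called lower after x-rays and in the 5 and 25% mixed fields, between -1.61 and -1.14 for Per1, a clock gene, and between -1.53 and -1.15 for Tsc22d3, a glucocorticoid-induced leucine zipper. Of 10 genes of STAT3 signaling, the receptor genes Il6ra and Il6st and Stat3 itself included, 8 passed. Saa3, an acute-phase serum amyloid, was called higher in the 5% mixed field by 4.35 (SE 0.72, adjusted p = 3.39e-04) and in the 25% mixed field by 3.45 (SE 0.74, adjusted p = 0.00184), and differed by 2.29, 3.36, and 1.85 elsewhere with SE above 1. Bcl3, an NF-kappaB cofactor, was called lower after x-rays, in the 25% mixed field, and after neutron alone. Junb, a subunit of the AP-1 factor, was called lower in the 25% mixed field, where it was well above background on only 2 of 6 arrays.

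The genes around Mt1 and Mt2 on the chromosome moved in both directions. Of 8 genes read there, Mt3 and Mt4 included, 5 passed the filters. Ogfod1 was the only one called higher, in every exposure but the 5% mixed field. It differed there by 2.02 (SE 0.50, limma adjusted p = 0.00459, p above 0.001). In each exposure 1 or 2 were called lower. Of all probes, 9.23 to 16.1% were called higher and 14 to 20.5% lower, and the counts were not tested against these shares. The changes were smaller than those of Mt1 and Mt2 except after neutron alone. There Ogfod1, a prolyl hydroxylase of the ribosome, rose by 2.40 (SE 0.22, adjusted p = 1.32e-06), beside 2.24 and 2.21 for Mt1 and Mt2. Nudt21, a factor of messenger RNA cleavage, fell in the mixed fields and after neutron alone, between -1.44 and -0.85, and differed by -0.98 after x-rays (SE 0.30, adjusted p = 0.0134). Nup93, of the nuclear pore, was called lower after x-rays, at -1.27.

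**Figure D5:**
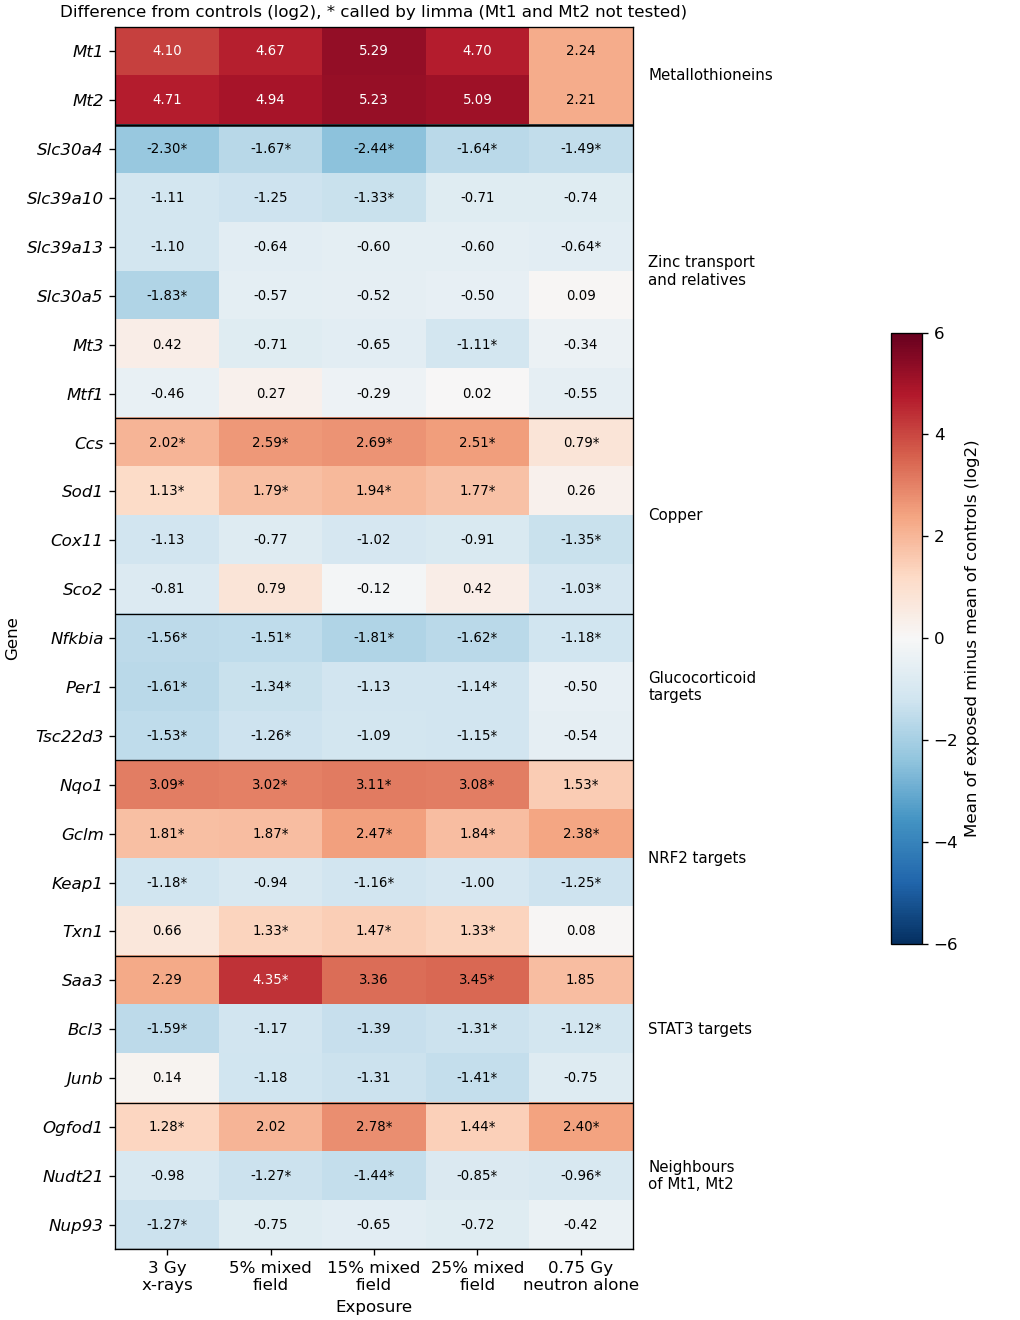
Differences from controls in log2 units for Mt1, Mt2, and the named genes of 6 lists (y axis) in 5 exposures (x axis), 6 mice per group, colored from blue (lower) to red (higher), with an asterisk where limma called the gene. Mt1 and Mt2 are red throughout, at 2.21 to 5.29, while the zinc genes shown are near 0 or blue and Nqo1, Gclm, and Ccs are red in every column.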

How the data were processed

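Blood RNA of 36 mice in 6 groups of 6 was measured on Agilent one-color arrays with 1 array per mouse. The authors deposited, for each array, the Feature Extraction 12.0.2 intensity values, which per the file headers are corrected for background within the array but not normalized between arrays. The authors also deposited a series table of log2 values, normalized and filtered to 14243 rows (14216 non-control probes, 11359 empty cells), which holds the Mt1 and Mt2 probes but not the second Mt1 probe. Its scale and direction were taken from its log2 unit and the agreement of its columns with the scanner values, and its normalization is not given in full in the sources used here.

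Intensities were put on the log2 scale, replicate spots were averaged leaving out those marked non-uniform, and the median of all non-control probes of an array was subtracted. The log2 scale, the median normalization, and the filters follow the study's methods, but the averaging of spots and the separate probes do not, since the study kept the brightest of duplicate features and averaged the probes of a gene. A probe was kept if its spot was uniform and its signal significant against background on over 75% of arrays, and if it lay 1.5-fold or more from its own median on at least 20%. Probes were kept apart, and a gene of a list was read by its brightest probe that passed. Probes well above background numbered 15658 to 21367 per array, and the number of arrays limits the precision. The 12 arrays of each comparison were fitted with limma 3.58.1 in R 4.3.3 across all 18059 probes, and a call needed p under 0.001 together with an adjusted p (Benjamini-Hochberg) under 0.05. The script was tested on simulated data. Correlations used deviations from group means and 100000 permutations within groups (scipy 1.17.1), or exact permutations in groups of 6. Intervals are at the 95% level. Promoter sequences are from RefSeq (GRCm38.p6), matched by symbol for 4 of 4 metallothionein genes. Figures were drawn with matplotlib 3.10.9.

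The members, gene lists, and tests were chosen with earlier results of these data known. Named are all Mt1 and Mt2 probes, the 5 genes with the highest r for each, up to 4 genes of each list with the largest mean change among those called in any exposure, and Mtf1, Mt3, and Mt4. The relations with cell markers and with probe number were added after the data were seen. Separate mice are taken as replicates from the sample titles. Alternatives were other scalings, normexp background correction (offset 50), other filters, the deposited log2 table, 1 model over 36 arrays, blocks for replicate number, slide, and scan session, array weights, and leaving out each array. No column was without a sample. A gene of the list around Mt1 and Mt2 is not reported here and was left out of its counts.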

Additional observations from a re-analysis of the deposited data

Results flagged for a closer look

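Among 18 sets of 6 arrays (3 probes in 6 groups), 3 held an array that stood apart by Dixon's rule for the gap to its nearest neighbor over the range of the set, which chance meets in about 1 in 20. On the Mt1 probe, x-ray replicate 5 lay at 5.58 and the other 5 between 7.30 and 7.51. Its array median of 7.68 was the lowest of the x-ray arrays. The same array had the highest level of the second Mt1 probe among x-ray arrays, 2.43, and the lowest of Mt2, 5.20. On the Mt2 probe, control replicate 4 lay at 1.90 and the others between 1.52 and 1.63, and replicate 5 of the 25% mixed field lay at 8.63 and the others between 6.02 and 6.57. That array was also the highest of its group for Mt1, at 9.27, and had the lowest array median of its group, 12.1. Without any 1 array, Mt1 and Mt2 after neutron alone stayed called lower than x-rays and lower than the 25% mixed field.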

How the results depend on the processing

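With normexp background correction, Mt1 minus controls was 2.61, 2.05, 4.36, 3.31, and 0.47 and Mt2 minus controls 2.62, 2.01, 3.74, 3.15, and 0.50 (x-rays, 5%, 15%, 25%, neutron alone). The 5% mixed field minus x-rays was then -0.56 and -0.61, neutron alone minus x-rays -2.14 and -2.12, and neutron alone minus the 25% mixed field -2.84 and -2.65 for Mt1 and Mt2, with no call. The same setting turned Ccs (-0.82), Aqp1 (-0.25), Mavs (-0.79), and Cln8 (-0.22) after neutron alone, and in the 5% mixed field Sod1 (-0.25), Gclm (-0.18), Txn1 (-0.69), Fars2 (-0.31), Cln8 (-0.25), Lancl1 (-0.59), and Ddb1 (-0.66). In the deposited table, Fam229a after neutron alone was -0.04. The normexp values include the offset of 50, whose part in them was not tested, and the cause of the Fam229a value was not tested. Under blocks for slide and for scan session, which rest on 1 array per group, the 5 and 15% mixed fields minus x-rays were -0.63 and -0.28 for Mt1 and -1.18 and -1.32 for Mt2, the 15% value of the second Mt1 probe was 0.36, and Mt2 minus controls was 3.92 and 3.78. Mt2 after neutron alone minus controls was 2.47 with 75th percentile scaling and 2.42 with quantile normalization. Mt2 in the 5% mixed field minus x-rays was -0.06 with quantile normalization and -0.07 in the deposited table, and ranged from -0.01 to 0.44 when each array was left out in turn. With array weights, Mt2 in the 25% mixed field minus x-rays was -0.17 and the second Mt1 probe in the 5% mixed field minus x-rays was 0.81. The mean of both Mt1 probes gave 3.08, 3.02, 2.88, 2.21, and 1.41 against controls, -0.06, -0.20, and -0.87 for the mixed fields minus x-rays, and -0.81 for neutron alone minus the 25% mixed field, which was then not called (limma adjusted p = 0.0554). Under all other settings run, Mt1 and Mt2 after neutron alone remained called lower than x-rays and than the 25% mixed field, with limma's adjusted p up to 0.0131. Differences of the other named genes lost their call in 259 and gained one in 45 of 1884 recomputed values that kept all arrays, and lost it in 107 and gained one in 17 of 1980 values that left out 1 array.

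Replicate numbers did not pair the arrays, since deviations of same-numbered arrays correlated by 0.0344 on average (-0.743 to 0.729) and 9 of 36 arrays were closest to their own number. With the replicate number as a block, no call of Mt1 or Mt2 changed, while calls over all probes went from 5435 to 3555 after x-rays, from 4214 to 2602 in the 5% mixed field, and from 445 to 1464 for the 25% mixed field minus x-rays.

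Calls over all probes against controls, 5435, 4214, 5248, 4508, and 6624, were 952, 911, 1385, 957, and 996 with normexp, 1584, 27, and 51 under the slide block in the first 3, and 97 and 160 under the session block at 5 and 15%. They were 6864 at 5% with array weights, and 16619 without filters and 4145 in 1 model after neutron alone. Between exposures, calls of 0, 687, 445, 2287, and 2010 (5%, 15%, 25%, and neutron alone minus x-rays, and neutron alone minus 25%) became 0, 150, 0, 0, and 209 with normexp, and 965, 2120, 1919, 3581, and 3070 with array weights. The first 3 were 800, 1739, and 1309 in 1 model. Blocks gave 1 and 0 for the first and second, and 387 for the last (slide). The third was 116 without filters and 670 with slide as a random block. Leaving out each array gave 0 to 429, 0 to 1555, and 0 to 853 in the first 3, and up to 3158 in the last, without replicate 5 of the 25% mixed field.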
